A study of Mus musculus with 16 samples.

Results

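Globin genes were followed across 16 libraries of mouse footpad epidermal cells. The set holds 5 genes of the 50600 rows of the count table: the adult beta globins Hbb-bs and Hbb-bt, the adult alpha globins Hba-a1 and Hba-a2, and Alas2, the erythroid 5-aminolevulinate synthase. They were chosen by their fold changes between the diets in vehicle-injected mice, where beta globins were among the largest rises. All values of the members in that contrast are therefore a description and carry no p-value here. All 5 were among the 22155 genes with at least 10 counts over all libraries.

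Epidermal cells came from female C57/B6J mice kept from 5 wk of age, for 3 wk, on a purified AIN-93M diet poor in ligands of the aryl hydrocarbon receptor (AhR-poor diet, SYNTH in the labels) or on that diet with indole-3-carbinol at 200 ppm (I3C diet), a plant compound that is a precursor of AhR ligands. The footpad received 50 μl of PBS (vehicle) or of PBS with 50 μg of papain, a protease used as a model allergen. Cells were taken after 6 hr, the epidermis having been separated with dispase and dead cells removed in every group. Each of the 4 groups has 4 libraries, 1 per mouse, named here by the end of the label's code: T108 to T111 (I3C, vehicle), T106 and T113 to T115 (I3C, papain), T100 to T103 (AhR-poor, vehicle), and T104, T105, T107 and T112 (AhR-poor, papain). Mice of one diet shared cages, so diet and cage cannot be told apart.

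Library totals ranged from 22500821 to 51844375 counts. Levels are in CPM, the counts divided by the TMM-scaled library total, and 3 counts correspond to 0.0569 to 0.130 CPM. To check the labelled cell type, 16 keratinocyte genes were summed, and they came to 54111 to 96779 CPM in every library, whereas the 4 globins together reached at most 1220 CPM, 0.124% of the counts of library T105.

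Hemoglobin is a tetramer of alpha-type and beta-type chains, each holding a heme, and is made in erythroid precursors and reticulocytes. Alas2 catalyses the first step of heme synthesis in these cells, whereas Alas1 does so in most others. Circulating reticulocytes keep globin mRNA after the nucleus is lost, and globin mRNA is therefore commonly found in tissues from which blood was not removed. Hbb-bs and Hbb-bt are the adult genes of one mouse beta globin haplotype.

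On GRCm38 (mm10), both beta globin genes lie on the minus strand of chromosome 7, Hbb-bs (ENSMUSG00000052305) at chr7:103826534-103828096 and Hbb-bt (ENSMUSG00000073940) at chr7:103812524-103813996. Both alpha globin genes lie on the plus strand of chromosome 11, Hba-a1 (ENSMUSG00000069919) at chr11:32283511-32284465 and Hba-a2 (ENSMUSG00000069917) at chr11:32296489-32297298. Alas2 (ENSMUSG00000025270) is at chrX:150547375-150570638, plus strand. The counts are per gene, over its exons as the authors counted them.

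How reads were shared between the near-identical genes decides how far they can be told apart. The 444 coding bases of the beta globins differed at 1 position, C417T (the base in Hbb-bs, the position from the first coding base, then the base in Hbb-bt), and the 429 coding bases of the alpha globins at 1 position, C381T (Hba-a1, then Hba-a2). The stretches around these positions are shown because they hold the only coding base that separates each pair, which is in capitals.
Hbb-bs, coding bases 387 to 444: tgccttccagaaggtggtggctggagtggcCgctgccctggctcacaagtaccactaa
Hbb-bt, coding bases 387 to 444: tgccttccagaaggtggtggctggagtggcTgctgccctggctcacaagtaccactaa
Hba-a1, coding bases 351 to 411: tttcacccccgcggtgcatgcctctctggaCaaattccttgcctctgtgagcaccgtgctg
Hba-a2, coding bases 351 to 411: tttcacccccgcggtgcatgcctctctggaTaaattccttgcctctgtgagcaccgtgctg

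Of the 100-base stretches of 1 annotated transcript per gene, each as long as a read, 62.6% for Hbb-bs, 54.8% for Hbb-bt, 56.5% for Hba-a1 and 74.5% for Hba-a2 occurred unchanged in a transcript of the partner gene, and none in any further gene. None of the 1938 stretches of Alas2 occurred in another gene. The split of counts within each globin pair is therefore uncertain, while the sum of a pair avoids that split. Reads left out by the counting because they matched both genes would be missing from either value.

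The promoters of the set differed more than the coding sequences, and short stretches of 3 are shown because they hold the motifs searched for that are near RefSeq's start, or the same place in the partner gene. The sequences and starts are RefSeq's for GRCm38.p6, 5′ to 3′ on the gene's strand, whereas the gene spans above are GENCODE's. For Hbb-bs the RefSeq start lies inside the GENCODE span, so that its stretch, though before the RefSeq start, is within that span and partly in an exon of another annotated transcript. Capitals mark the CACCC box in Hbb-bs, the aligned bases in Hbb-bt, and the reverse complement of a GATA motif in Alas2.
Hbb-bs, chr7:103828003-103828032, minus strand: attccgtagagCCACACCCtggtaagggcc
Hbb-bt, chr7:103813997-103814026, minus strand: accctgcagggTAACACCCtggcattggcc
Alas2, chrX:150547319-150547348, plus strand: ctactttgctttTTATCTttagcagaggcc

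The CACCC box (CCACACCC, both strands) occurred in Hbb-bs alone of the 5 promoters, each read from 250 bases before to 50 bases after the RefSeq start, and in 3.56% of 32851 RefSeq promoters. In Hbb-bt, 6 of the 8 aligned bases were the same. The GATA motif (AGATAA, both strands) occurred in Hbb-bs and Alas2 and in 11.2% of all promoters. The TATA-like ATAAAA (both strands) occurred in Alas2 alone and in 18.5% of all promoters. In Alas2 it was the reverse complement, at bases -88 to -83 from the start, overlapping the GATA match. Other TATA-like letters were not searched for, so the presence or absence of a TATA box cannot be read from this. Over the 120 bases before the start, 88 were the same in Hbb-bs and Hbb-bt at the best alignment, and 117 in Hba-a1 and Hba-a2. These matches are descriptions of the letters in these windows.

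Among the 8 papain-injected mice, whose libraries the choice of the genes did not use, all 5 genes had higher levels with the AhR-poor diet, by 75.7 to 127 times in mean CPM. In that comparison 7.15% of the 22155 genes tested were called higher and 0.0993% lower, where a call needs an adjusted p under 0.01 and a change beyond 1 on the log2 scale. For each of the 5 genes, the lowest of the 4 AhR-poor libraries exceeded the highest of the 4 I3C libraries, which was true of 12.5% of all genes tested, with 12.3% the other way. The 5 genes rose and fell in the same libraries and are not 5 independent measurements. In bulk samples such as these, fewer cells of a type and less RNA per cell cannot be told apart.

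Hbb-bs, the adult beta globin gene to which more counts were assigned, was at 265, 753, 319 and 155 CPM in the AhR-poor papain libraries T104, T105, T107 and T112, and at 9.62, 1.92, 0.0571 and 0.174 CPM in the I3C papain libraries T106, T113, T114 and T115. The groups were far apart, with 16.1 times between the lowest AhR-poor library and T106, the highest I3C library. The log2 fold change was 6.95 (SE 1.01), with an edgeR adjusted p of 0.000332. The exact two-sided permutation test of 4 against 4 gave p = 0.0286 for this gene and for each of the other 4, the smallest p this design allows.

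Hbb-bt, the second adult beta globin, was at 21.2, 55.1, 27.4 and 12.4 CPM in the same 4 AhR-poor libraries and at 1.10, 0.289, 0 and 0 CPM in the I3C libraries. The 0 counts in T114 and T115 allow up to 0.0856 and 0.0746 CPM. The log2 fold change of Hbb-bt was 6.32 (SE 0.78, edgeR adjusted p = 7.67e-05).

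The alpha globins shared the beta globins' order of the AhR-poor libraries. Hba-a1 was at 101.9, 292, 135 and 65.7 CPM in T104, T105, T107 and T112 and at 4.24, 0.994, 0.143 and 0.224 CPM in T106, T113, T114 and T115, a log2 fold change of 6.68 (SE 0.79, edgeR adjusted p = 5.70e-05). Hba-a2 was at 41.8, 121, 53.8 and 25.3 CPM against 1.70, 0.160, 0.143 and 0 CPM, a log2 fold change of 6.82 (SE 0.83, edgeR adjusted p = 7.69e-05). As for the beta globins, T105 was the highest AhR-poor library, T112 the lowest, and T106 the highest I3C library.

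Alas2, which shares no read-length stretch with the globins, was at 11.0, 33.9, 15.8 and 8.10 CPM in the AhR-poor papain libraries and at 0.585, 0.192, 0.0571 and 0.0746 CPM in the I3C papain libraries. The groups again did not overlap, with the lowest AhR-poor library at 13.9 times T106. The log2 fold change was 6.18 (SE 0.63, edgeR adjusted p = 1.05e-05), with the smallest standard error of the 5 genes.

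**Figure D1:**
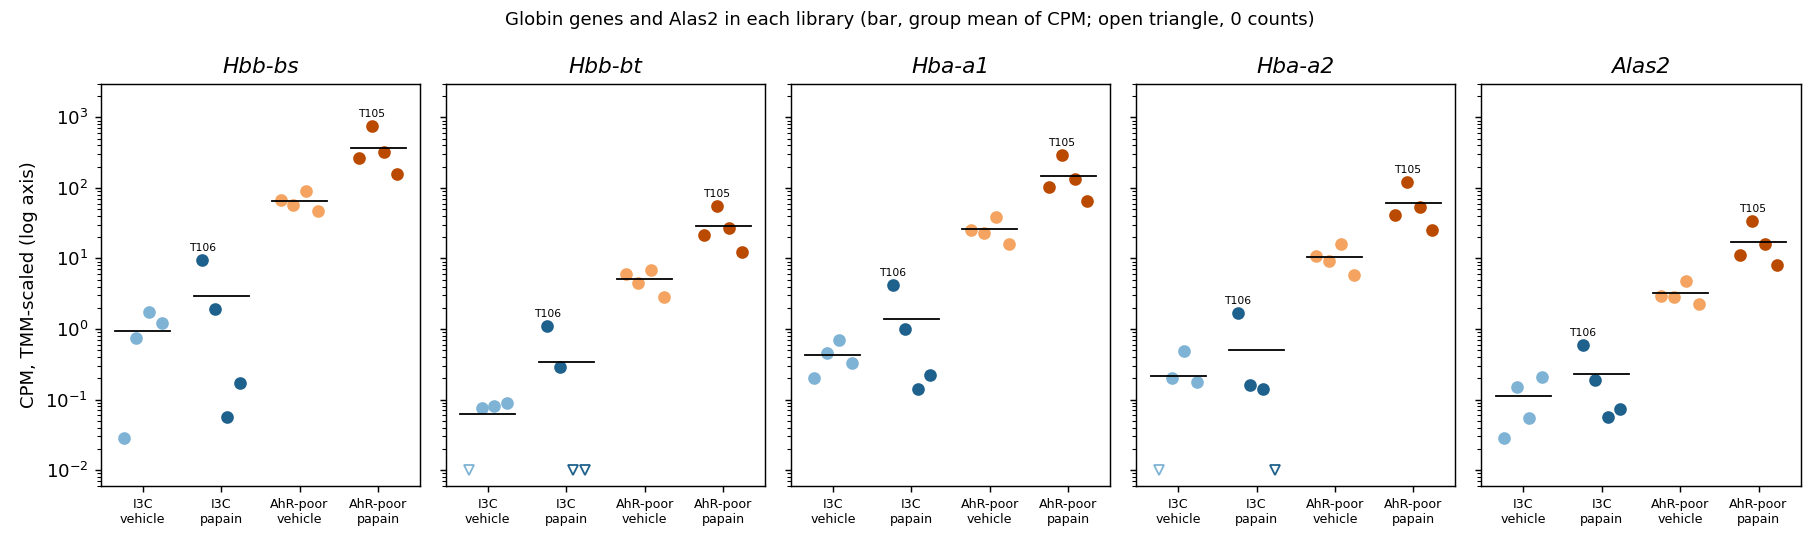
CPM of Hbb-bs, Hbb-bt, Hba-a1, Hba-a2 and Alas2 in each of the 16 libraries (y axis, TMM-scaled CPM, log axis; x axis, the 4 groups). Points are libraries, bars are group means of 4 libraries, and open triangles at the foot are libraries with 0 counts; in every panel the 4 AhR-poor papain libraries lie above all others, with T105 highest.

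T105 and T106 weighed on the size of these differences, though not on the calls. Without T106, the log2 fold changes rose to 9.13 for Hbb-bs, 8.36 for Hbb-bt, 8.44 for Hba-a1, 9.28 for Hba-a2 and 7.34 for Alas2. Without T105 they were 6.34, 5.80, 6.11, 6.23 and 5.60 in the same order. All 5 genes passed the threshold in each of 25 alternatives, the largest adjusted p being 0.00833 for Hbb-bs. The alternatives that only loosened the threshold could not lose a call, and with summed gene pairs both genes of a pair share their value.

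Among vehicle-injected mice the levels were lower, and the order of the diets was the one by which the genes were chosen. Hbb-bs was at 68.0, 56.8, 88.8 and 46.3 CPM in the AhR-poor libraries T100 to T103, and at 0.0287, 0.739, 1.71 and 1.23 CPM in the I3C libraries T108 to T111. T102 was the highest and T103 the lowest AhR-poor vehicle library for each of the 5 genes, and T108, with 1 count of Hbb-bs and none of Hbb-bt, the lowest I3C vehicle library. Alas2 was at 2.91, 2.81, 4.75 and 2.28 CPM against 0.0287, 0.153, 0.0544 and 0.210 CPM.

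The remaining globins showed the same split in vehicle libraries. Hbb-bt ranged from 2.87 to 6.87 CPM on the AhR-poor diet and from 0 to 3 counts on the I3C diet, so that its mean was at least 60.7 times higher, taking 3 counts per library as the floor. Hba-a1 ranged from 15.9 to 39.0 CPM against 0.201 to 0.707 CPM, and Hba-a2 from 5.87 to 15.9 CPM against 0 to 0.490 CPM. The ratios of mean CPM were 70.0 for Hbb-bs, 60.6 for Hba-a1, 48.2 for Hba-a2 and 28.6 for Alas2, and the log2 fold changes 6.12 (SE 1.06), 5.90 (SE 0.88), 5.55 (SE 0.94) and 4.80 (SE 0.71).

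In this contrast 1.59% of all genes tested, 352 genes, were called higher and 0% lower, and the 2 groups of 4 libraries did not overlap for 6.45% of genes in the higher and 1.67% in the lower direction. By edgeR 0 genes were called lower, and 6 by DESeq2. Beyond the fold change that a call needs, 151 were lower by edgeR at an unadjusted p below 0.05. Smaller decreases were not counted there, whereas such counts for the gene lists below have no fold limit. The count called higher was 595 by DESeq2 and 193 without T110.

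On the AhR-poor diet the papain libraries held more of every member than the vehicle libraries, and the ratios of mean CPM were close to each other, 5.74 for Hbb-bs, 5.72 for Hbb-bt, 5.78 for Hba-a1, 5.73 for Hba-a2 and 5.40 for Alas2. The 2 groups did not overlap for any of them, which was true of 17% of all genes tested, with 16% the other way, and 6.04% were called higher and 2.42% lower. Mean CPM went from 65.0 ± 18.2 to 373 ± 262 for Hbb-bs and from 25.7 ± 9.70 to 149 ± 99.5 for Hba-a1 (SD, n = 4). The vehicle libraries entered the choice of the genes, so this contrast is given without a test. It shares its papain libraries with the diet difference described above.

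On the I3C diet the papain and vehicle libraries overlapped for all 5 genes. Mean Hbb-bs was 0.928 ± 0.720 CPM with vehicle and 2.94 ± 4.53 CPM with papain (SD, n = 4), and mean Alas2 was 0.112 ± 0.0848 CPM and 0.227 ± 0.246 CPM. The fitted log2 fold changes of 1.06 to 2.47 rested on T106: without it they were -0.49 for Hbb-bs, 0.43 for Hbb-bt, -0.01 for Hba-a1, -1.21 for Hba-a2 and -0.10 for Alas2, each within 1 SE of 0. Of all genes tested, 3.69% were called higher with papain on this diet and 5.29% lower, and the groups did not overlap for 16.2% in the higher and 17.3% in the lower direction.

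Per kilobase of merged exons, and with the split of counts within each globin pair uncertain as described, Hbb-bs led in both AhR-poor groups, with 486 ± 341 CPM per kb after papain. Hba-a1 followed at 183 ± 123, Hba-a2 at 90.5 ± 62.6, Hbb-bt at 41.3 ± 26.2 and Alas2 at 7.16 ± 4.81 CPM per kb (SD, n = 4). The order was the same after vehicle: 84.6 ± 23.7, 31.7 ± 11.9, 15.8 ± 6.28, 7.22 ± 2.50 and 1.33 ± 0.448 CPM per kb. After papain, Hbb-bs and Hba-a1, Hba-a1 and Hba-a2, and Hba-a2 and Hbb-bt overlapped between libraries, whose levels spanned 4.18 to 4.85 times for each gene, while Hbb-bt and Alas2 did not. After vehicle, Hbb-bs lay above Hba-a1 in every library and Hbb-bt above Alas2, and the neighbours between them overlapped. Within each of the 8 AhR-poor libraries the order of the 5 genes was the same.

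The proportions among the globins were not used to choose the genes, and varied far less than their level. Over the 8 AhR-poor libraries, in which the 4 globins held 2646 to 64326 counts, Hbb-bt took 5.83% to 8.13% of the beta globin counts, Hba-a2 27.0% to 30.2% of the alpha globin counts, and the alpha globins 30.7% to 36.5% of all globin counts. Alas2 stood at 25.6 to 32.1 counts per 1000 globin counts. The summed globin level in the same libraries ranged from 71.0 to 1220 CPM.

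With papain and with vehicle these proportions lay within the spread of the libraries. The share of Hbb-bt was 7.38% ± 0.446 with papain and 7.13% ± 0.958 with vehicle (SD, n = 4 each, exact permutation p = 0.686). The share of Hba-a2 was 28.6% ± 0.657 and 28.8% ± 1.35 (exact permutation p = 0.857), and that of the alpha globins 34.4% ± 0.964 and 33.6% ± 2.45 (exact permutation p = 0.600). Alas2 stood at 28.6 ± 2.44 and 30.0 ± 2.56 per 1000 globin counts (exact permutation p = 0.429). Adjusted over the 4 tests, each p was 0.857. The differences, papain minus vehicle, were 0.250, -0.200 and 0.835 percentage points for the 3 shares and -1.46 per 1000 globin counts for Alas2, each smaller than the SD of the vehicle libraries.

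The I3C libraries held 8 to 684 globin counts, which leaves these shares wide. In T106, the library with the most, Hbb-bt took 10.2% of the beta counts (95% Wilson interval 7.73 to 13.4), Hba-a2 28.7% of the alpha counts (23.4 to 34.7), and the alpha globins 35.7% of the globin counts (32.2 to 39.3). In T108, with 8 globin counts, 7 were of Hba-a1 and 1 of Hbb-bs. The intervals cover counting error only, and reads of near-identical genes may be split by the aligner.

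**Figure D2:**
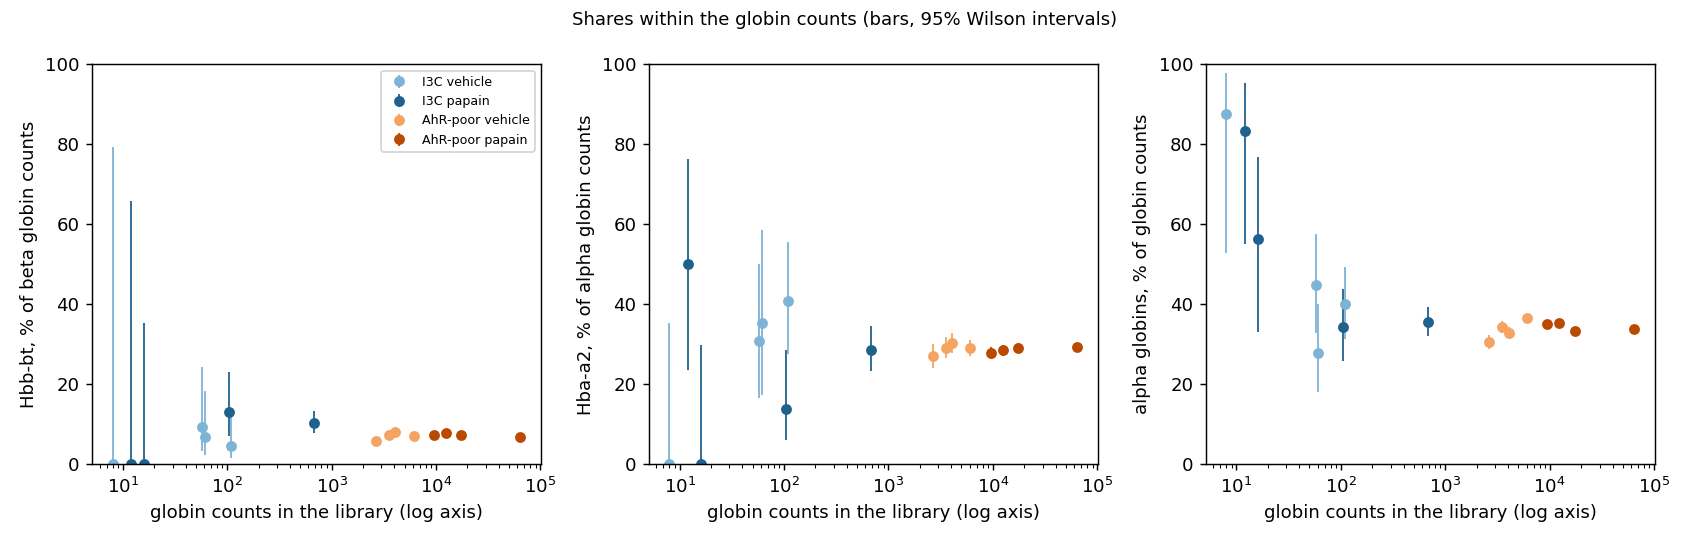
Share of Hbb-bt in the beta globin counts, of Hba-a2 in the alpha globin counts and of the alpha globins in all globin counts (y axes, percent) against the globin counts of each library (x axis, log axis). Points are the 16 libraries with 95% Wilson intervals; the 8 AhR-poor libraries lie between 5.83% and 8.13%, 27.0% and 30.2%, and 30.7% and 36.5%, and the intervals widen in the I3C libraries with few counts.

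Embryonic globin genes were nearly absent. The beta-type genes Hbb-y, Hbb-bh0, Hbb-bh1 and Hbb-bh2 had 0 counts in all 16 libraries, which allows up to 3 counts in each, and the embryonic alpha-type Hba-x had 1 count in all. Of 12 other globins listed, 3 were tested and 2 were called higher with papain and the AhR-poor diet: Mb, the myoglobin of muscle, by a log2 fold change of 4.51 (SE 0.92, edgeR adjusted p = 0.00236), and Cygb, the cytoglobin of fibroblasts and other stromal cells, by 3.90 (SE 0.29, edgeR adjusted p = 1.07e-07). Cygb had counts in every library, 1780 in all, and Mb 307. Mb did not share the order of the members, since T105 held 0.436 CPM of it and T107 2.60 CPM. Without T114 or T115, 1 of the 2 calls remained.

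None of the 12 genes of heme synthesis listed beside Alas2 was called between the diets with papain, by edgeR or by DESeq2. Over all genes tested, edgeR called 7.15% higher and 0.0993% lower, so 0 of 12 is close to those shares. Of the 12, 2 were higher and 4 lower at an unadjusted p below 0.05. Their median log2 fold change was -0.09, against 0.01 over all genes tested. Their summed level was 415 to 463 CPM in every library of all 4 groups. Alas1, the housekeeping counterpart of Alas2, was at 37.3, 40.6, 35.6 and 32.7 CPM in the AhR-poor papain libraries and at 29.7, 33.6, 31.0 and 28.4 CPM in the I3C papain libraries. Of the 2 synthases, Alas2 alone thus passed the threshold.

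Of 41 erythroid genes listed, 34 were tested, 8 were called higher on the AhR-poor diet with papain and 0 lower, where 7.15% of all genes tested were called higher and 0.0993% lower, and the median log2 fold change was 0.66. At an unadjusted p below 0.05, 15 were higher and 5 lower, and DESeq2 called 8 higher and 0 lower. Among the largest were Aqp1 (5.96, SE 0.50), a water channel of red cells and endothelium; Nfe2 (5.86, SE 0.71), a transcription factor of erythroid cells and megakaryocytes; Gypc (4.15, SE 0.49), glycophorin C; and Tal1 (4.09, SE 0.56), a transcription factor of blood and endothelial cells (log2 fold changes, edgeR adjusted p from 1.25e-06 to 3.72e-05). Several of the 8 are thus also known outside erythroid cells. Leaving out 1 library gave 7 to 10 called.

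Several defining genes of the red cell membrane and of erythroid precursors stayed near 0. Slc4a1, the band 3 anion exchanger, had 0 to 4 counts a library and 21 in all 16. Rhag, Kel and Car1 had 0 counts in all libraries, and Gata1 had 9 counts in T105 and at most 2 elsewhere. In T105 Hbb-bs alone had 39685 counts.

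Genes that clear hemoglobin and heme were also listed. Of 20 tested, 7 were called higher on the AhR-poor diet with papain and 0 lower (12 higher and 3 lower at an unadjusted p below 0.05; 7 and 0 by DESeq2), with a median log2 fold change of 0.81, beside the same 7.15% and 0.0993% of all genes. The largest were Spic (7.37, SE 1.33), a transcription factor of red pulp macrophages; Hp (6.34, SE 0.79), haptoglobin, which binds free hemoglobin; Slc11a1 (5.69, SE 0.68), a metal transporter of phagosomes; Cd163 (5.18, SE 0.64), the receptor for haptoglobin with hemoglobin; and Flvcr2 (1.93, SE 0.36), a transporter of the heme exporter family (log2 fold changes, edgeR adjusted p from 1.74e-05 to 0.00109). The value for Spic rested on low counts, with 0 counts in 8 of the 16 libraries and most of its counts in 1 library. Mean Spic was 0.521 CPM in the AhR-poor papain libraries and 0 CPM in the I3C papain libraries. Hp was at 21.2, 36.7, 21.6 and 3.64 CPM in T104, T105, T107 and T112, and at 0.731, 0.160, 0 and 0.0746 CPM in T106, T113, T114 and T115. For Hp too, T105 and T106 were the highest libraries of their groups, whereas with vehicle it stayed at or below 7 counts on both diets.

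Of 16 platelet genes listed, 10 were tested and 4 were called higher with papain and the AhR-poor diet: Ppbp (7.16, SE 1.31) and Pf4 (5.52, SE 0.64), chemokines of platelet granules, F13a1 (5.13, SE 0.81), a clotting factor subunit also found in macrophages, and Itgb3 (3.29, SE 0.34), an integrin of platelets and other cells (log2 fold changes, edgeR adjusted p from 2.17e-06 to 0.00202). Ppbp had 7, 54, 13 and 4 counts in T104, T105, T107 and T112, 1 count in T101 and 0 in the other 11 libraries. At an unadjusted p below 0.05, 7 of the 10 were higher and 0 lower, DESeq2 called 5 higher and 0 lower, and 7.15% of all genes were called higher by edgeR. Leaving out 1 library gave 3 to 6 called, the 6 without T106. The platelet receptor genes Gp6, Gp9 and Gp1ba had 1, 3 and 3 counts in all 16 libraries. Gp1bb, Itga2b and Gp5 of the same list had 5289, 5727 and 97 counts and were not called. Their log2 fold changes were 0.42, -0.29 and 0.999.

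With vehicle, 1.59% of all genes tested were called higher on the AhR-poor diet and 0% lower, and the same lists held few. Those called higher were 1 of 3 other globins (Cygb), 4 of 34 erythroid genes (Gypc, Tal1, Aqp1 and Dmtn), 2 of 20 clearance genes (Cd163 and Flvcr2), 1 of 10 platelet genes (Pf4) and 0 of 12 heme synthesis genes, of which 1 was higher and 0 lower at an unadjusted p below 0.05. By edgeR and by DESeq2, 0 genes of these lists were called lower, and DESeq2 called 2, 6, 3, 2 and 0 higher in the same order.

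**Figure D3:**
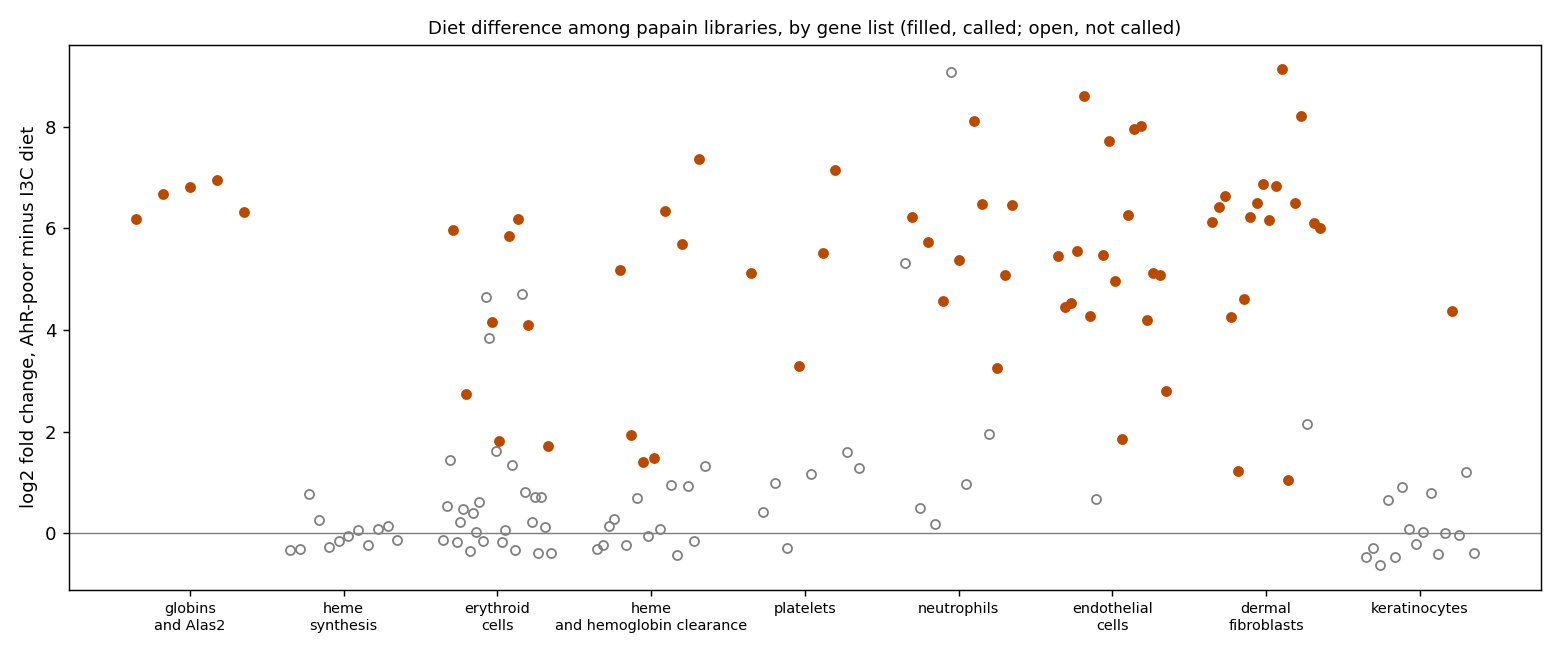
Log2 fold change (y axis, AhR-poor minus I3C diet, papain libraries) of each tested gene, by gene list (x axis). Points are genes, filled where called; all 5 of the globin set, 8 of 34 erythroid genes and 0 of 12 heme synthesis genes are filled, beside 17 of 18 endothelial and 17 of 18 fibroblast genes.

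Markers of other cells moved with the globins, and their part in the globin difference was not tested. With papain, 17 of 18 endothelial markers (median log2 fold change 5.10), 17 of 18 dermal fibroblast markers (6.20), 9 of 15 neutrophil markers (5.31) and 9 of 12 monocyte and macrophage markers (4.63) were called higher on the AhR-poor diet, and 1 of 16 keratinocyte markers (-0.01), beside 7.15% of all genes. So were 7 of 12 pericyte and smooth muscle markers, 6 of 11 skeletal muscle markers (9 by DESeq2), 3 of 9 B cell markers, 3 of 10 Langerhans cell markers (8 by DESeq2) and 1 of 8 epidermal T cell markers (4 by DESeq2), and 0 of any of these lists were called lower. Without 1 library, the counts ranged from 4 to 7, 3 to 9, 1 to 4, 1 to 8 and 0 to 7 in that order, with 8 Langerhans cell and 7 epidermal T cell markers called without T106. Endothelial markers summed to 3.65 to 6.70 CPM in the I3C vehicle libraries, 7.06 to 7.79 with papain, 29.7 to 63.5 in the AhR-poor vehicle libraries and 51.4 to 117 with papain. Fibroblast markers summed to 79.2 to 106.4, 25.6 to 45.6, 193 to 302 and 370 to 871 CPM in the same order. Col6a1 alone had means of 73.6, 17.2, 66.9 and 40.6 CPM in that order, and so made up most of the fibroblast sum with I3C and vehicle.

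The summed globins, at 0.230 to 2.99, 0.343 to 16.7, 71.0 to 151 and 259 to 1220 CPM in that order of groups, did not move with these markers in every library. T106 held 16.7 CPM of globins, above the 0.343 to 3.37 CPM of the other I3C papain libraries, with an endothelial sum of 7.06 CPM, the lowest of that group, and a fibroblast sum of 45.6 CPM, the highest. Neutrophil markers summed to 131 CPM in T106, also the lowest of that group, where the others reached 187 CPM. Other markers were highest of the group in T106: Langerhans cell markers summed to 890 CPM, against 406 to 589 CPM in the other 3, and B cell markers to 3.75 CPM, against 1.37 to 1.94 CPM. Flt1 and Plvap, at means of 2.86 and 2.67 CPM, made up most of the endothelial sum on the I3C diet with papain, and Vim was at 88.2 CPM in T106, against 26.5 to 51.2 CPM. Summed neutrophil markers were at 11.1 to 16.5 CPM in the AhR-poor vehicle libraries, below every I3C papain library, while the globins were above all of them. Lcn2, at a mean of 89.7 CPM, was the largest part of the neutrophil sum with I3C and papain, followed by Cxcr2, S100a9, S100a8 and Mmp9. Retnlg had a higher mean in the AhR-poor vehicle libraries (0.333 against 0.0891 CPM), as had Ngp, Camp, Ltf, Elane and Itgb2l at lower levels. Ly6g had a mean of 0 in both groups, and the other markers were higher with I3C and papain.

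**Figure D4:**
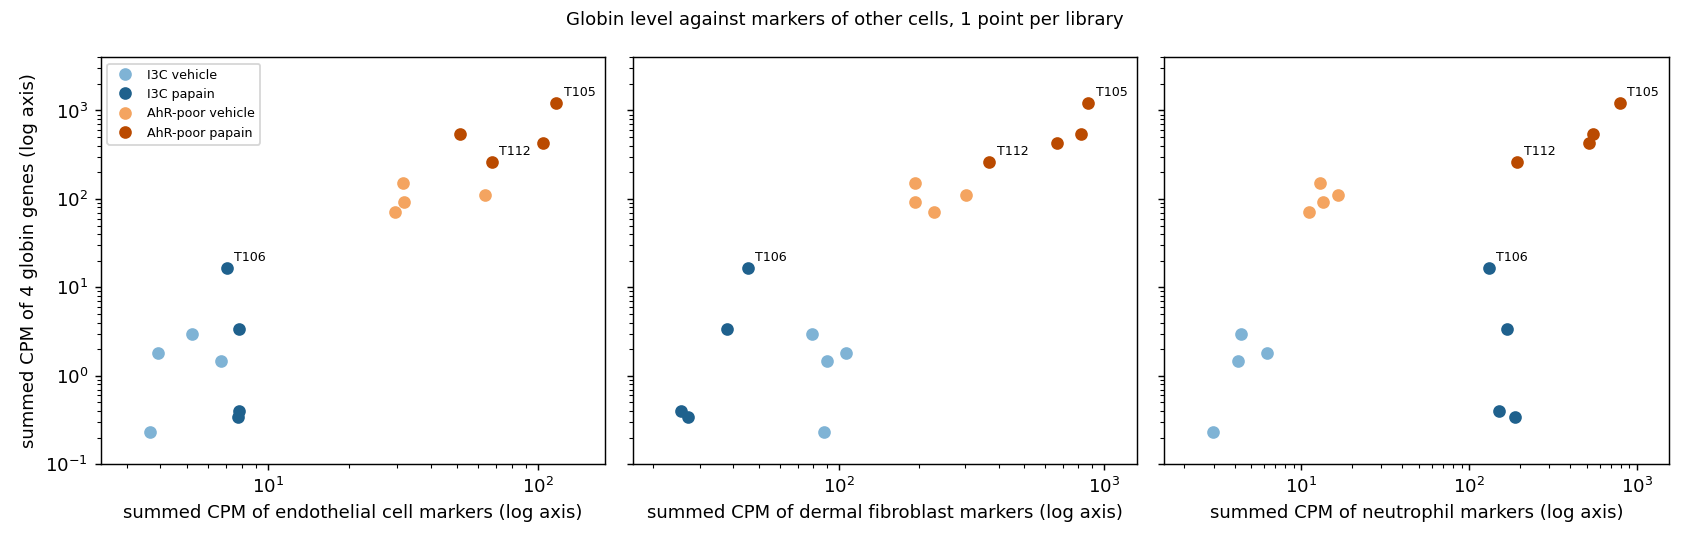
Summed CPM of Hbb-bs, Hbb-bt, Hba-a1 and Hba-a2 (y axis, log axis) against the summed CPM of endothelial, dermal fibroblast and neutrophil markers (x axes, log axes). Each point is 1 of 16 libraries, coloured by group; T106 lies above its group in globins at 7.06 CPM of endothelial markers, and T105 has the highest value on every axis.

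The genes most like Hbb-bs over the 16 libraries, by Pearson's r of log2(CPM + 0.5) among 13021 genes with a mean of at least 1 CPM, were Col3a1 (0.984), Col1a2 (0.982), Fstl1 (0.978), Col1a1 (0.977) and Vim (0.976), of which the 3 collagens are the fibrillar collagens of the dermis. The other 4 members had values of 0.970 to 0.994. These values mostly reflect the 4 group levels, and genes in the same libraries share depth and cell makeup. With the mean of each group taken off, the genes were Gm2a (0.908), Myo1f (0.900), Col1a2 (0.899), Lrmp (0.890) and Lyz2 (0.882), and the other members stood at 0.745 for Alas2 to 0.947 for Hba-a1. By rank correlation, 0 and 1 of these 5 genes stayed among the first 5, so the choice of neighbours depends on the measure.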

How the data were processed

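RNA of epidermal cells from 16 mice was sequenced (TruSeq Stranded mRNA, 100-nt paired-end reads). The authors aligned reads with STAR to mm10 and deposited raw counts per gene, without normalization. The counting tool, annotation release and strand setting are not given in the sources used here. Symbols and positions were taken from GENCODE M21 for GRCm38 (50376 of 50600 identifiers matched) and promoters from RefSeq GRCm38.p6, which held all 5 genes.

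Groups were taken from the labels. Genes reaching a total of 10 counts were tested with the edgeR 4.0.16 quasi-likelihood F test (R 4.3.3, robust, TMM factors, 1 mean per group over 16 libraries), with Benjamini-Hochberg adjustment over 22155 genes. A call needed an adjusted p under 0.01 and a change beyond 1 on the log2 scale. Totals of 22500821 to 51844375 counts set the floor of 3 counts at 0.0569 to 0.130 CPM. Exact permutation tests (scipy 1.17.1) were two-sided and used log2 CPM or shares. Scripts were tested on simulated data. Replicates of a group differed by more than counting noise (chi-square per degree of freedom at least 10.2).

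The globin genes and the lists were chosen with earlier results of these data known. From the lists of other globins, heme synthesis, erythroid, clearance and platelet genes, at most the 5 largest changes among those called with papain were named. Values of some listed genes are not reported here. The near-zero genes, the platelet genes named as not called, Alas1 and the genes given for the vehicle contrast were named after their values were seen. Of the listed genes, 3 had no row and were not analysed here. Which of 3 sequencing units held each library is not given, so it was not a term. Alternatives were RLE factors, library totals, other filters, DESeq2 1.42.0, summed gene pairs, other thresholds and leaving out each library.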

Additional observations from a re-analysis of the deposited data

Results flagged for a closer look

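Within each group of 4 libraries, the highest and lowest value of each gene and share were compared with the others (40 groups of values, Dixon's critical value 0.829), of which 2 were set apart. The 40 groups of values share libraries and counts, so the number that chance would give is not known. Hba-a2 in the I3C papain library T106 was at 1.70 CPM, with a gap of 0.906 of the group's range to the next library. Hbb-bt in the I3C vehicle library T108 was at 0 CPM, with a gap of 0.849 of the range, where the other 3 libraries had 3 counts each.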

How the results depend on the processing

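The diet difference with papain kept its direction and call for Hbb-bs, Hbb-bt, Hba-a1, Hba-a2 and Alas2 in all 25 alternatives each. Those that only loosened the threshold could not lose a call. The 1583 genes called higher were 1254 to 1781 when 1 library was left out. The 22 called lower were 11 with library totals only, 70 at an adjusted p below 0.05, 680 with no minimum fold change, and 6 (without T104) to 34 (without T106) when 1 library was left out. With vehicle, the 352 genes called higher were 595 by DESeq2 and 193 (without T110) to 430 when 1 library was left out, with 195, 209, 233 and 209 without T108, T109, T111 and T100, and the 0 called lower were 6 by DESeq2 and 0 to 2 when 1 library was left out. The difference of shares between papain and vehicle on the AhR-poor diet changed sign for Hba-a2 without T100 (0.262 percentage points) or T112 (0.0816), and for Hbb-bt (-0.183) and the alpha globins (-0.145) without T103; over all libraries left out in turn it ranged from -0.815 to 0.262, from -0.183 to 0.584 and from -0.145 to 1.79. Summing each gene pair gave a papain log2 fold change on the I3C diet of 1.76 for Hbb-bt with Hbb-bs, and without T105 Alas2 changed by 1.86 with papain on the AhR-poor diet. With a pseudocount of 0.1, 3 of the 5 genes most like Hbb-bs stayed in each list. Counts of genes called in each list without 1 library were added after seeing the data. No paired analysis was possible because the groups share no replicate numbers. Low globin counts, 8 to 684, limit the I3C libraries, whose totals of 32213808 to 42848017 counts lay within the range of the AhR-poor libraries.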
